A study of Mus musculus with 37 samples.

Results

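At 4 months of age the series holds a pair of cerebellar RNA libraries, 1 labelled Mll4 KO and 1 labelled Mll4 WT, and this account sets the library labelled KO against the library labelled WT across all genes. A gene was taken up when its mean over both libraries was at least 1 FPKM, a level corrected for transcript length and library size. That left 14791 of the 29955 gene symbols in the table. The pair is 2 of the 37 samples of the series, which also has 3 KO and 3 WT cerebellar libraries at 1 month and 29 chromatin immunoprecipitation and input samples, not analysed here. All 8 RNA libraries are labelled C57BL/6 and cerebellum, and total RNA was prepared with Trizol. The protocol text names the genotypes Mll4 BSKO and Mll4f/f. A header row inside the table calls the 1-month columns bsko and control and the 4-month columns ko1 and wt1. The sources used here do not give the promoter or driver of the deletion, the cells it reaches, or the number of animals behind a library. With 1 library on each side there was no replicate check and no test was made, so every difference below compares 2 libraries and not 2 genotypes.

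The labelled tissue did not match the markers in the library labelled KO. The granule and Purkinje cell genes Gabra6, Fat2, Cbln3 and Pcp2 were each under 1 FPKM there. In the other 7 libraries they were between 18.4 and 517 FPKM. Other genes of the Purkinje list, such as Aldoc, Pcp4 and Itpr1, stayed high in the library labelled KO, though lower than in WT. Most transcription factors of the telencephalon were higher there than in the library labelled WT. With 1 library to each genotype at 4 months, genotype and any other difference between the libraries, such as the make-up of the tissue, cannot be told apart. In bulk RNA, fewer cells of a type and less RNA per cell cannot be told apart either.

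Regional identity in the adult brain is carried by transcription factors set early in development and by the proteins of the neurons that each region makes. The telencephalon, from which cortex, hippocampus and striatum arise, is specified by its own homeobox, T-box and bHLH factors, among them Emx1, Tbr1 and Neurod6 of its excitatory neurons. The cerebellum arises from the hindbrain at its border with the midbrain, where En2 acts, and its bulk is granule neurons, which depend on Zic factors, with Purkinje cells as the output neurons of its cortex. Brainstem and spinal cord further back are marked by Hox genes, glycine neurons, and cholinergic and monoamine nuclei.

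Promoter sequences of 4 genes at opposite ends of the comparison are printed here because these genes carry the contrast between cortical and cerebellar neurons. They are RefSeq sequences of build GRCm38.p6, from 250 bases before to 50 bases after the annotated start, 5′ to 3′ on the gene's strand. Capitals mark CAGATG, a form of the E-box used by neuronal bHLH factors, and TTGGCA, the NFI half-site, on either strand.
Nrgn: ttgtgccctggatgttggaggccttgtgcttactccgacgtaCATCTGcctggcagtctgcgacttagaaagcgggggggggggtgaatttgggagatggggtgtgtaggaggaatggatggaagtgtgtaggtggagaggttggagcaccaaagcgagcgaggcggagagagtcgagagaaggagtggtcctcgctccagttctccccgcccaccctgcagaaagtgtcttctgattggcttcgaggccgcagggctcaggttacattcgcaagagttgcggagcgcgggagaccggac
Tbr1: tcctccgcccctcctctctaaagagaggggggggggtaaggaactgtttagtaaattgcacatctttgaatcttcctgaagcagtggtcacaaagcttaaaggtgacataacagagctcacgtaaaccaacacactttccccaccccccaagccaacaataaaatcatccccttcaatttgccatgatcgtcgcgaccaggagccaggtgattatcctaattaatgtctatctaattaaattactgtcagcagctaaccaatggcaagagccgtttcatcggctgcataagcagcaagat
Gabra6: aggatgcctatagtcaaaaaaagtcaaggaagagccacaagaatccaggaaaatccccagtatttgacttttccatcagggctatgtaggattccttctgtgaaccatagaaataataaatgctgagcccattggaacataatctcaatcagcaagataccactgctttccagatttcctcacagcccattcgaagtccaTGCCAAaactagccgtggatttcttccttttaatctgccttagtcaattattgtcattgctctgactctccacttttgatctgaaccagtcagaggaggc
Cbln3: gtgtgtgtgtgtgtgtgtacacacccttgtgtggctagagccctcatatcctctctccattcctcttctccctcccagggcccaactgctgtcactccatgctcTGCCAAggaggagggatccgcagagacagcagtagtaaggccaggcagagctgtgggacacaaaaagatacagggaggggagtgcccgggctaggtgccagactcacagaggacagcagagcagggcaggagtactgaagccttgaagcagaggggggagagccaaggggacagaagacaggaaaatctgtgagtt
Nrgn encodes neurogranin, a calmodulin-binding protein of forebrain dendrites, and its window lies on the minus strand at chr9:37552696-37552995. Tbr1, a T-box factor of deep-layer cortical neurons, lies on the plus strand at chr2:61804203-61804502. Gabra6 encodes the GABA-A receptor subunit of granule neurons and lies on the minus strand at chr11:42321023-42321322. Cbln3, a secreted cerebellin of granule neurons, lies on the minus strand at chr14:55884207-55884506. The Nrgn window held 1 CAGATG and 17 CG dinucleotides, and the Tbr1 window held neither motif and 7 CG. In the windows of Gabra6 and Cbln3 there was 1 TTGGCA each and 2 CG each. Of all 32544 promoter windows, 17.1% held CAGATG and 14.1% held TTGGCA, and the median window held 7 CG. Among the genes kept that had a window, CAGATG was in 4 of 13 of the cortical projection list and 1 of 13 of the granule list, and TTGGCA in 0 and 3. For the telencephalic list CAGATG was in 0 of 8 and TTGGCA in 1, and for the Purkinje list each was in 1 of 11. The median window held 20 CG in the cortical, 18 in the telencephalic, 9 in the granule and 23 in the Purkinje list. The window of the granule gene Fat2, not printed, held neither motif and 4 CG. No more is drawn from these matches, which describe letters in a window.

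Across the 14791 genes, 1415 (9.57%) were at least 1 higher on the log2(FPKM + 1) scale in the library labelled KO than in the library labelled WT, and 1653 (11.2%) were at least 1 lower. On this scale a difference of 1 is a doubling for abundant genes, and the pseudocount of 1 FPKM understates the change of low genes. The median difference over all genes was -0.0050. Set against all 7 other RNA libraries, the library labelled KO at 4 months lay at least 1 above the highest of them in 470 genes (3.18%) and at least 1 below the lowest in 286 genes (1.93%). Counted for each library over the same 14918 genes, those that averaged 1 FPKM in the 8 libraries, the library labelled KO at 4 months stood apart in 412 above and 288 below. The library labelled WT at 4 months stood apart in 72 genes above and 110 below, and the 1-month libraries each in between 3 and 27 above and between 2 and 21 below. Many members of the lists below did not reach the filter, and a member that reached it only through the library where it is high had to differ. For such lists the counts cover every member found, read against the 20736 genes above 0 in either library. Of those, 1514 (7.3%) were at least 1 higher and 1759 (8.48%) at least 1 lower.

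**Figure D1:**
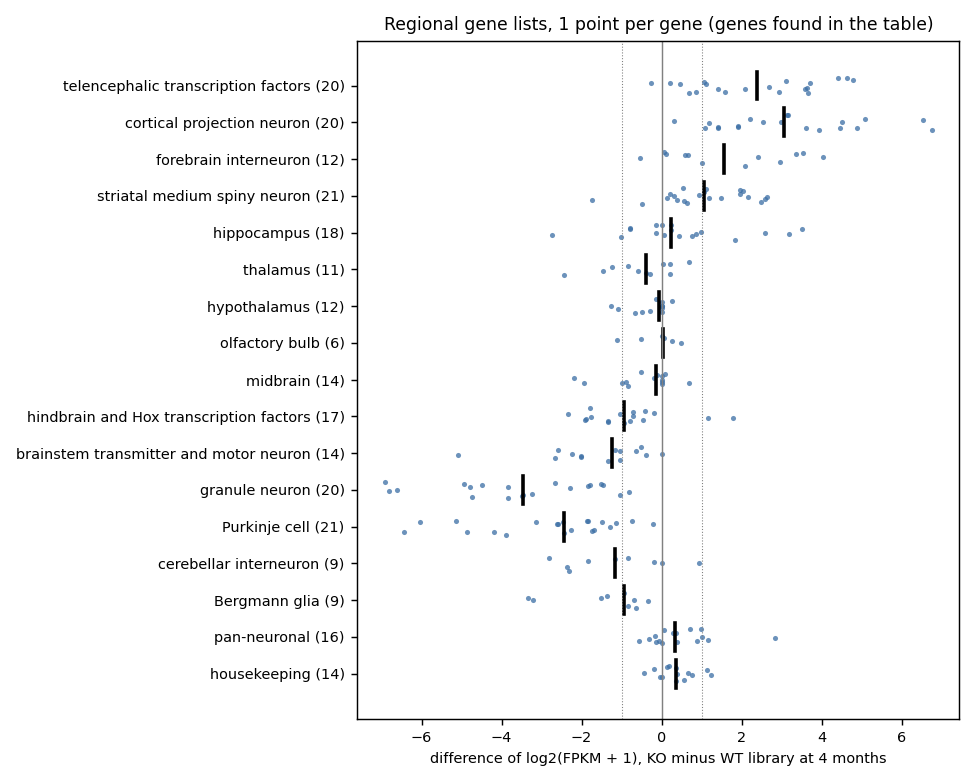
Difference of log2(FPKM + 1), KO minus WT at 4 months (x axis), for every gene found of 17 lists (rows, with the number of genes), members listed at 0 in a library included. Black bars are list medians and dotted lines mark -1 and 1. Telencephalic and cortical lists sit to the right with medians of 2.39 and 3.06, granule and Purkinje lists to the left with medians of -3.47 and -2.44, and the pan-neuronal and housekeeping lists at 0.33 and 0.37.

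Restricted to genes that averaged 5 FPKM or more, the extremes of the comparison included many genes of these regions. The 10 highest in the library labelled KO were Ddn, Nrgn, Egr3, Crym, Gda, Kcnj4, Kcnv1, Icam5, 1700086L19Rik and 3110035E14Rik. Of these, 4 were in the cortical lists and 1, Egr3, in the list of immediate early genes. Ddn, which encodes dendrin of postsynaptic sites, was at 194 FPKM in the library labelled KO, against 0.803 FPKM in the library labelled WT, a difference of 6.76. Icam5 encodes telencephalin, an adhesion molecule of telencephalic dendrites, and was at 43.9 FPKM against 0.546 FPKM in WT. Kcnj4, an inward rectifier potassium channel, was at 45.2 FPKM in the library labelled KO, against 0.412 FPKM in the library labelled WT. The 10 lowest were Gabra6, Fat2, Cbln3, Pcp2, Car8, Cnpy1, Homer3, Slc6a5, Arhgef33 and Zic1. Of those, 7 were in the cerebellar lists and 1, Slc6a5, in the brainstem list. Cnpy1, known from fish for a part in FGF signalling at the border of midbrain and hindbrain, was listed at 0 in the library labelled KO, against 63.6 FPKM in the library labelled WT. Among the 100 largest upward differences, 24 were members of forebrain lists and 72 of no list. Of the 100 largest downward, 21 were members of cerebellar lists and 77 of no list. Forebrain lists held 0.580% and cerebellar lists 0.487% of the 9650 genes ranked, and these lists were chosen with results of these data known.

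**Figure D2:**
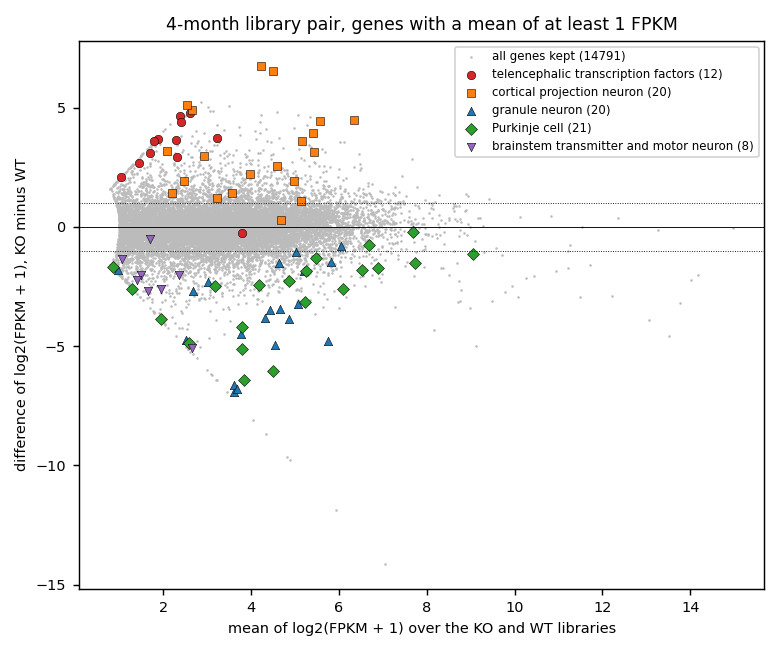
Difference of log2(FPKM + 1), KO minus WT at 4 months (y axis), against the mean of log2(FPKM + 1) over both libraries (x axis), for the 14791 genes kept, 1 point per gene. Coloured points are the members kept of 5 lists. The cortical projection neuron genes lie above the line at 0 in all 20 cases and the granule neuron genes below it in all 20.

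Transcription factors of the telencephalon were mostly higher in the library labelled KO. Of the 20 found, 15 were at least 1 higher, none was at least 1 lower, and the median difference was 2.39. Of the 20, 12 passed the filter, 10 of them only through the library labelled KO. In the library labelled WT, 18 of the 20 were under 1 FPKM and 8 were listed at 0.

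Tbr1 was at 31.2 FPKM in the library labelled KO, against 0.162 FPKM in WT. The 3 KO libraries at 1 month had 0.0397, 0.135 and 0.150 FPKM of Tbr1 and the 3 WT libraries 0.115, 0.119 and 0.537 FPKM. The library labelled KO at 4 months was thus alone in holding Tbr1 above 1 FPKM. Emx1, a homeobox gene of the dorsal telencephalon, was at 8.48 FPKM in the library labelled KO, against 0.101 FPKM in WT. Neurod6, a bHLH factor of excitatory cortical neurons, was at 33.2 FPKM, against 1.60 FPKM in WT. Fezf2, a factor of layer 5 projection neurons, was at 11.0 FPKM in the library labelled KO and listed at 0 in WT.

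Factors of the ventral telencephalon, where forebrain inhibitory neurons arise, were higher than in WT as well, several of them at low levels. Dlx1 was at 12.2 FPKM in the library labelled KO, against 0.0390 FPKM in WT. Lhx6, which acts in neurons of the medial ganglionic eminence, was at 5.90 FPKM, against 0.0678 FPKM in WT. Dlx2, Dlx5 and Dlx6 were listed at 0 in WT, and were at 0.814, 1.15 and 1.67 FPKM in the library labelled KO. Dlx2 was 1 of 5 members that differed by less than 1, with Six3, Sp8, Sp9 and Bhlhe22. Six3, a homeobox factor, was at 0.167 FPKM in the library labelled KO and listed at 0 in WT, and reached 0.620 FPKM in a WT library of 1 month. Sp8 and Sp9, zinc finger factors of forebrain inhibitory neurons, were at 0.471 and 0.744 FPKM in the library labelled KO, against 0.0735 and 0.0774 FPKM in WT. Bhlhe22, a bHLH factor that cerebellum and cortex both use, was at 11.6 FPKM in the library labelled KO and 14.1 FPKM in WT, a difference of -0.26.

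Cortical projection neuron genes were higher in nearly every case. All 20 passed the filter, 4 of them only through the library labelled KO. Of the 20, 19 were at least 1 higher and none was lower, with a median of 3.06. Of all genes kept 9.57% were at least 1 higher, with a median of -0.0050. In 19 of the 20 the library labelled KO at 4 months was above all 7 other libraries, and in 15 by at least 1. Camk2a, the kinase subunit abundant at forebrain synapses, was at 385 FPKM in the library labelled KO, against 16.1 FPKM in WT, a difference of 4.50. Its 1-month values were 13.2, 11.8 and 12.8 FPKM in the KO libraries and 15.7, 15.3 and 14.5 FPKM in the WT libraries. The other 7 libraries thus lay within a few FPKM of each other. Nrgn was at 218 FPKM in the library labelled KO, against 1.36 FPKM in WT, a difference of 6.54. Its values at 1 month were 5.88, 5.71 and 1.81 FPKM in the KO libraries and 13.8, 14.9 and 7.13 FPKM in the WT libraries. The library labelled WT at 4 months was the lowest of the 8 for Nrgn. Mef2c, a transcription factor of cortical neurons, was at 221 FPKM in the library labelled KO, against 9.11 FPKM in WT. Crym, the thyroid hormone binding crystallin mu, was at 33.2 FPKM and listed at 0 in WT. Cck, a neuropeptide abundant in cortex, was at 165 FPKM in the library labelled KO, against 9.91 FPKM in WT. Cux2, a factor of upper cortical layers, was the exception at 27.7 FPKM in the library labelled KO and 22.3 FPKM in WT.

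The genes of single cortical layers were taken from 3 lists chosen after values of this table had been seen, and every layer had members that were higher. For layers 2 to 4, 7 of 12 were at least 1 higher and 2 lower, with a median of 1.28. For layer 5 the count was 6 of 12 higher and 1 lower, with a median of 1.02, and for layer 6 and subplate 5 of 12 higher and 1 lower, with a median of 0.89. Rasgrf2, a marker of layer 2, was at 32.9 FPKM in the library labelled KO, against 6.32 FPKM in WT. Rorb, of layer 4, was at 18.4 FPKM in the library labelled KO, against 6.30 FPKM in WT. Bcl11b, of layer 5, was at 12.8 FPKM, against 0.790 FPKM in WT, and Cplx3, of the subplate, at 4.65 FPKM, against 0.228 FPKM in WT. Among the members that were lower, Calb1, a calcium buffer also in the Purkinje list, was at 26.6 FPKM in the library labelled KO, against 167 FPKM in WT. Etv1, also in the granule list, was at 13.7 FPKM, against 41.4 FPKM in WT.

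**Figure D3:**
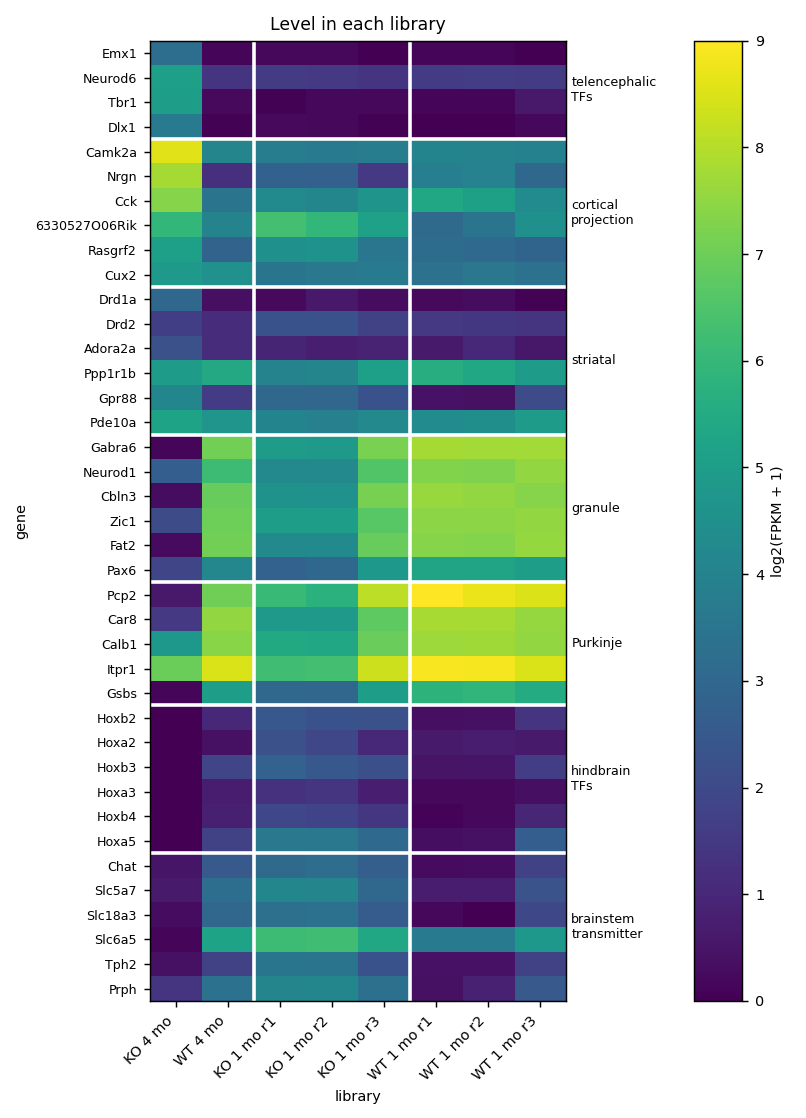
Level of each gene, as log2(FPKM + 1), in the 8 RNA libraries (columns: KO and WT at 4 months, then 3 KO and 3 WT libraries at 1 month), for up to 6 of the first genes of 7 regional lists (rows). The left column, the library labelled KO at 4 months, is bright for telencephalic and cortical genes and mostly dark for granule, Purkinje, hindbrain and brainstem genes. The other 7 columns share the opposite pattern in the telencephalic and granule rows.

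Genes of forebrain inhibitory neurons, a list of peptides and other genes, were mostly higher, as the ventral factors were. Of 12 genes found, 7 were at least 1 higher and none at least 1 lower, with a median of 1.55. The 1 member that was lower differed by -0.55. Of the 10 that passed the filter, 5 did so only through the library labelled KO. Sst, somatostatin, was at 131 FPKM in the library labelled KO, against 11.9 FPKM in WT. Unlike the transcription factors, Sst was well above 0 in every library, at 75.1, 77.1 and 42.3 FPKM in the KO libraries of 1 month and 30.2, 28.5 and 28.5 FPKM in the WT libraries. Vip, the vasoactive intestinal peptide of a cortical interneuron class, was at 20.0 FPKM in the library labelled KO, against 0.825 FPKM in WT and 0.441 to 1.93 FPKM over the 1-month libraries. Npy was at 67.5 FPKM, against 3.18 FPKM in WT. Cort, cortistatin, was at 6.84 FPKM in the library labelled KO and listed at 0 in WT. Nkx2-1, which marks the ventral source of such cells in the embryo, was near 0 throughout, at 0.0426 FPKM in the library labelled KO and listed at 0 in the other 7.

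Striatal genes were higher as a list, but not in every member. Of 21 genes found, 11 were at least 1 higher and 1 lower, with a median of 1.06. Of the 21, 17 passed the filter, 2 of them only through the library labelled KO. Drd1a, the dopamine receptor of direct pathway neurons, was at 7.14 FPKM in the library labelled KO, against 0.305 FPKM in WT and 0.0358 to 0.544 FPKM over the 1-month libraries. Drd2, the receptor of indirect pathway neurons, was at 2.19 FPKM against 1.18 FPKM in WT. That was inside the range at 1 month, where the KO libraries had 2.30 to 3.86 FPKM and the WT libraries 1.56 to 1.84 FPKM. Adora2a, the adenosine receptor of the same neurons, was at 3.74 FPKM in the library labelled KO, against 1.21 FPKM in WT. Ppp1r1b, which encodes DARPP-32, the phosphatase inhibitor of medium spiny neurons, was at 29.9 FPKM in the library labelled KO and 42.2 FPKM in WT. Several list members that were high are also made in cortex. Foxp1 was at 30.8 FPKM in the library labelled KO, against 6.16 FPKM in WT, and Arpp21, a regulated phosphoprotein, at 213 FPKM, against 37.3 FPKM. Tmem90a, the table's symbol for Syndig1l, was the member that was lower, at 2.03 FPKM in the library labelled KO, against 9.07 FPKM in WT.

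Hippocampal genes split. Of 18 found, 4 were at least 1 higher and 2 lower, with a median of 0.24, and the median over the 20736 genes was -0.011. Of the 18, 12 passed the filter, 2 of them only through the library labelled KO. Prox1, a homeobox factor that defines dentate granule cells and is also used in the cerebellum, was at 4.02 FPKM in the library labelled KO, against 7.66 FPKM in WT and up to 14.6 FPKM over the 1-month libraries. Zbtb20, a zinc finger factor of hippocampal neurons and glia, was at 13.8 FPKM in the library labelled KO, against 28.9 FPKM in WT. Both were lowest in the library labelled KO among all 8. Markers of single hippocampal fields were at low levels. C1ql2, a secreted dentate protein, was at 1.75 FPKM in the library labelled KO, against 0.614 FPKM in WT, and Spink8, a marker of CA1, was at 0.937 FPKM, against 0.644 FPKM. Those higher by at least 1 were Neto1, Ociad2, Trpc6 and Nptx2. Neto1, an accessory subunit of kainate receptors, was at 24.2 FPKM in the library labelled KO, against 1.80 FPKM in WT, and Nptx2, a secreted pentraxin, at 22.2 FPKM, against 1.03 FPKM. Wfs1, the wolframin gene of CA1 and upper cortical neurons, was at 30.4 FPKM, against 14.7 FPKM in WT, just under the line at 1.

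The lists of thalamus, hypothalamus and midbrain held no member that was at least 1 higher. For thalamus it was 0 of 11 higher and 3 lower, for hypothalamus 0 of 12 and 2, and for midbrain 0 of 14 and 2. The olfactory bulb, a part of the telencephalon, also had 0 of 6 higher and 1 lower, with a median of 0.03. Most genes of hypothalamus and midbrain were low in both libraries: all 12 hypothalamic and all 14 midbrain genes were under 1 FPKM in the library labelled KO, and 9 and 10 of them in the library labelled WT. Prkcd, a kinase of relay thalamus that Purkinje cells also make, was at 3.51 FPKM in the library labelled KO, against 23.7 FPKM in WT. Slc17a6, the vesicular glutamate transporter of subcortical neurons, was at 11.8 FPKM in the library labelled KO, against 21.7 FPKM in WT. Th, tyrosine hydroxylase of dopamine and noradrenaline neurons, was at 0.337 FPKM, against 5.14 FPKM in WT. Otx2, a homeobox factor of midbrain that is also made in cerebellum and choroid plexus, was at 0.302 FPKM in the library labelled KO, against 4.02 FPKM in WT.

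Most hindbrain factors were listed at 0 in the library labelled KO. Of 17 hindbrain and Hox factors, 8 were at least 1 lower and 2 higher, with a median of -0.94, and 14 were listed at 0 in the library labelled KO but none in the library labelled WT. Over all 39 Hox genes in the table, a list taken up after values were seen, 37 were listed at 0 in the library labelled KO, against 19 in the library labelled WT. Their summed level was 0.108 FPKM in the library labelled KO and 18.1 FPKM in WT. At 1 month the sums were 66.0, 62.1 and 43.4 FPKM in the KO libraries and 3.84, 3.98 and 26.6 FPKM in the WT libraries. The library labelled KO at 4 months was thus below all others, while the 1-month KO libraries were above all WT libraries. Hoxa5 was listed at 0, against 2.45 FPKM in WT. Its 1-month values were 11.3, 11.2 and 7.52 FPKM in the KO libraries and 0.256, 0.317 and 5.41 FPKM in the WT libraries. Among the 2 members that were higher was Egr2, which patterns the hindbrain in the embryo and is an immediate early gene in the adult. It was at 2.94 FPKM in the library labelled KO, against 0.152 FPKM in WT.

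Transmitter genes of brainstem nuclei were mostly lower too. Of 14 found, 10 were at least 1 lower and none higher, with a median of -1.25. Of the 8 that passed the filter, 6 did so only through the library labelled WT. Slc6a5, the transporter of glycine neurons, was at 0.0797 FPKM in the library labelled KO, against 35.9 FPKM in WT, a difference of -5.10. The KO libraries of 1 month had 70.2, 75.4 and 41.6 FPKM and the WT libraries 12.2, 12.6 and 26.8 FPKM. The highest values of Slc6a5 were thus in KO libraries and so was the lowest. Chat, choline acetyltransferase, was at 0.414 FPKM in the library labelled KO, against 4.67 FPKM in WT. Tph2, the serotonin-making enzyme of raphe neurons, was at 0.327 FPKM in the library labelled KO, against 2.33 FPKM in WT. Prph, peripherin of motor neurons, was at 1.56 FPKM, against 9.39 FPKM in WT. At 1 month Chat was at 0.206 to 2.39 FPKM in the WT libraries and 5.63 to 8.26 FPKM in the KO libraries. For Tph2 these ranges were 0.357 to 2.35 FPKM and 3.85 to 10.2 FPKM, and for Prph 0.328 to 4.64 FPKM and 8.92 to 16.4 FPKM. Low values of these genes were thus found in WT libraries of 1 month too, and for Chat and Prph some lay below the library labelled KO at 4 months.

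**Figure D4:**
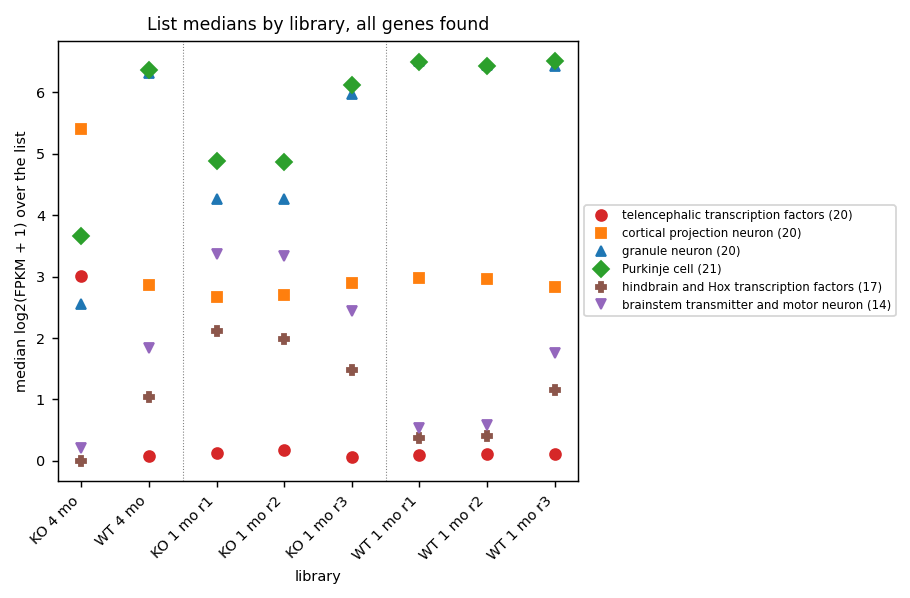
Median of log2(FPKM + 1) over all genes found of 6 lists (y axis, coloured symbols) in each of the 8 RNA libraries (x axis). In the library labelled KO at 4 months the telencephalic median is 3.02 and the granule median 2.55, against 0.07 and 6.31 in the library labelled WT. In the 1-month KO libraries the hindbrain and brainstem medians lie above those of the WT libraries.

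Granule neuron genes were lower in all 20 cases. All passed the filter, 5 of them only through the library labelled WT. Of the 20, 19 were at least 1 lower, with a median of -3.47, against 11.2% of all genes kept. In 17 of 20 the library labelled KO at 4 months was the lowest of the 8, and in 12 by at least 1. Gabra6, whose promoter is printed above, was at 0.118 FPKM in the library labelled KO, against 134 FPKM in WT, a difference of -6.92. At 1 month it was at 29.5, 28.5 and 145 FPKM in the KO libraries and 219, 213 and 217 FPKM in the WT libraries. The KO libraries of 1 month thus ran lower than WT as well, but not under 28.5 FPKM. Fat2, a giant cadherin of granule cell axons, was at 0.214 FPKM in the library labelled KO, against 136 FPKM in WT and 18.4 to 189 FPKM over the 1-month libraries. Cbln3 was at 0.236 FPKM, against 120 FPKM in WT and 22.7 to 195 FPKM at 1 month. En2, the engrailed factor of the cerebellar territory, was at 0.106 FPKM in the library labelled KO, against 28.7 FPKM in WT.

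While 5 of the 20 granule genes were under 1 FPKM in the library labelled KO, others kept some signal. Zic1 was at 3.21 FPKM in the library labelled KO, against 129 FPKM in WT, and Neurod1, a bHLH factor of several neuron classes, at 5.42 FPKM, against 71.4 FPKM. Pax6, a paired box factor, was at 2.65 FPKM in the library labelled KO, against 16.9 FPKM in WT. Cadps2, a factor of vesicle release, was the member with the smallest difference, at 48.4 FPKM in the library labelled KO and 86.4 FPKM in WT.

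Purkinje cell genes were lower in all 21 cases, in 19 by at least 1, with a median of -2.44. All 21 passed the filter, 5 of them only through the library labelled WT. Skor2, Lhx1 and Lhx5, transcription factors that set up Purkinje cells, were listed at 0 in the library labelled KO, against 2.24, 13.7 and 5.06 FPKM in WT. Pcp2, a G protein regulator known from Purkinje cells, was at 0.544 FPKM in the library labelled KO, against 132 FPKM in WT. Its 1-month values were 66.7, 52.7 and 273 FPKM in the KO libraries and 517, 429 and 365 FPKM in the WT libraries. The lowest of the other 7 libraries was at 52.7 FPKM. Car8, which encodes a protein that binds the IP3 receptor, was at 1.81 FPKM in the library labelled KO, against 184 FPKM in WT. Gsbs, the table's symbol for Ppp1r17, was at 0.114 FPKM in the library labelled KO, against 31.6 FPKM in WT. Itpr1, the IP3 receptor itself, was at 125 FPKM, against 356 FPKM in WT. The smallest differences were those of Pcp4, Prkcc and Aldoc. Pcp4, a calmodulin regulator, was at 192 FPKM in the library labelled KO and 222 FPKM in WT, and Prkcc, protein kinase C gamma, at 79.0 FPKM and 133 FPKM. Aldoc, the aldolase of Purkinje stripes and of astrocytes, was at 354 FPKM in the library labelled KO, against 785 FPKM in WT.

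Most genes of the remaining cell types of the cerebellum were lower too. Of 9 genes of cerebellar interneurons and unipolar brush cells, 5 were at least 1 lower and none was at least 1 higher. Grm2 of this list went the other way, at 15.6 FPKM in the library labelled KO and 7.59 FPKM in WT, a difference of 0.95. Pax2, of young inhibitory interneurons, was listed at 0 in the library labelled KO, against 6.07 FPKM in WT, and Eomes, of unipolar brush cells, was at 0.0256 FPKM, against 4.30 FPKM. Tcfap2b, an AP-2 factor of inhibitory interneurons, was at 0.307 FPKM in the library labelled KO, against 5.44 FPKM in WT. Of 9 Bergmann glia genes, all were lower and 4 by at least 1. Gdf10, a growth factor of Bergmann glia, was at 3.25 FPKM in the library labelled KO, against 38.6 FPKM in WT, whereas Slc1a3, the glutamate transporter they share with other astrocytes, was at 111 FPKM and 179 FPKM. The Zic and Engrailed genes, a list taken up after values were seen, were lower in all 7 cases. Most of them were already counted above, Zic1, Zic2, Zic4 and En2 in the granule list and En1 in the midbrain list.

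Within receptor families, several subunits known from cerebellar neurons were lower and several known from forebrain were higher. Among 13 GABA-A receptor subunits, 6 were at least 1 higher and 2 lower in the library labelled KO. Gabra6 and Gabrd, which pair outside the synapse in granule neurons, were the members that were lower, Gabrd at 18.5 FPKM in the library labelled KO, against 69.2 FPKM in WT. Gabra4, the partner of delta in forebrain, was at 38.3 FPKM in the library labelled KO, against 7.07 FPKM in WT and 6.96 to 9.32 FPKM over the 1-month libraries. Gabra5, abundant in hippocampus and deep cortex, was at 28.1 FPKM, against 4.95 FPKM in WT, and Gabra3 at 35.6 FPKM, against 8.29 FPKM. Gabrg3 was at 21.3 FPKM in the library labelled KO, against 2.14 FPKM in WT, and Gabrb1 at 36.2 FPKM, against 14.7 FPKM. Gabrb2, a subunit found in most neurons, was at 78.4 FPKM in the library labelled KO and 68.3 FPKM in WT. Gabra2 and Gabrg1 differed by 0.29 and -0.28.

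Among 17 ionotropic glutamate receptor subunits, 3 were at least 1 higher and 3 lower. Grin2b, the NMDA receptor subunit of forebrain, was at 171 FPKM in the library labelled KO, against 7.84 FPKM in WT, a difference of 4.28. In animals of 1 month it was at 21.2, 21.8 and 13.5 FPKM in the KO libraries and 18.9, 10.4 and 14.9 FPKM in the WT libraries. Grin2c, the subunit of mature granule neurons, went the other way with 9.91 FPKM in the library labelled KO, against 101 FPKM in WT, and 13.2, 14.0 and 52.0 FPKM in the KO libraries and 66.2, 69.9 and 65.2 FPKM in the WT libraries of 1 month. Grin1, the subunit every NMDA receptor contains, was at 121 FPKM in the library labelled KO and 120 FPKM in WT. Grin2a was at 51.8 FPKM in the library labelled KO, against 21.7 FPKM in WT, and Grin2d, of brainstem and diencephalon, at 1.54 FPKM, against 6.88 FPKM. Grid1, a delta receptor, was at 29.2 FPKM in the library labelled KO and 18.4 FPKM in WT. Among AMPA receptor subunits Gria3 was at 97.0 FPKM in the library labelled KO, against 29.2 FPKM in WT. Gria1, Gria2 and Gria4 differed by 0.64, 0.98 and -0.97. The kainate receptor subunits Grik1, Grik3, Grik4 and Grik5 differed by 0.24, 0.53, 0.24 and 0.21, Grik2 by -0.98, and the NMDA receptor subunit Grin3a by 0.26.

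Of the 7 metabotropic glutamate receptors, 4 were at least 1 higher and 2 lower. Grm4, the presynaptic receptor of parallel fibres, was at 9.16 FPKM in the library labelled KO, against 282 FPKM in WT. Grm5, abundant in cortex and striatum, was at 105 FPKM in the library labelled KO, against 9.95 FPKM in WT and 14.6 to 35.4 FPKM over the 1-month libraries. Grm3 was at 58.5 FPKM in the library labelled KO, against 13.8 FPKM in WT. Grm7, Grm8 and Grm2, the last also in the list of cerebellar interneurons, were higher by 1.53, 1.69 and 0.95.

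**Figure D5:**
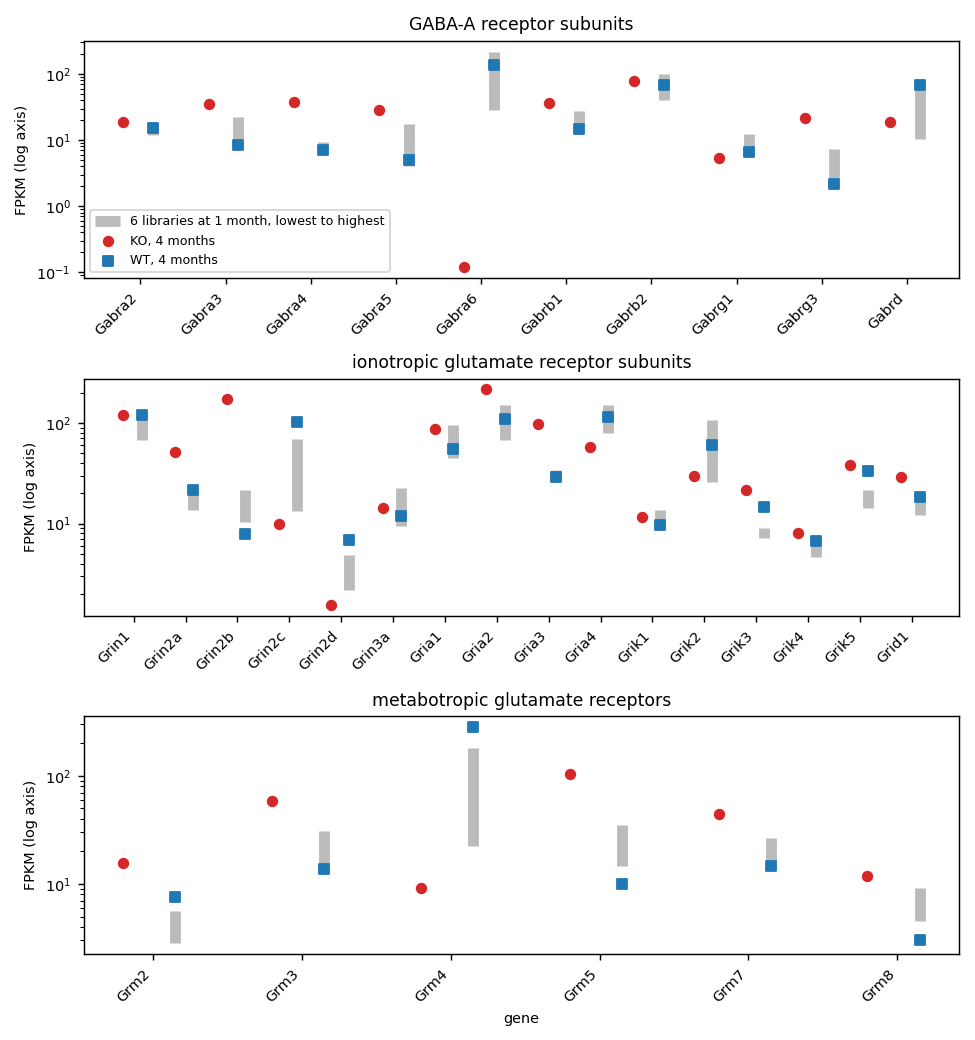
Level in FPKM (y axis, log scale) of subunits of 3 receptor families (x axis) in the library labelled KO (red circles) and the library labelled WT (blue squares) at 4 months. Grey bars span the lowest to the highest of the 6 libraries at 1 month. Gabra6, Grin2c and Grm4 lie far lower in the library labelled KO, at 0.118, 9.91 and 9.16 FPKM, and Grin2b and Grm5 far higher, at 171 and 105 FPKM.

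Other synaptic families, from lists taken up after values were seen, held similar pairs. Homer1 was at 131 FPKM in the library labelled KO, against 22.2 FPKM in WT, and Homer3, the Purkinje cell form of the same scaffold, at 1.32 FPKM, against 80.8 FPKM. Chrm1, the muscarinic receptor of forebrain, was at 27.3 FPKM in the library labelled KO, against 0.136 FPKM in WT and 0.233 to 0.498 FPKM over the 1-month libraries. Of 17 muscarinic and serotonin receptors, 7 were at least 1 higher and none lower. Glra1, the glycine receptor subunit of brainstem and spinal cord, was at 0.431 FPKM in the library labelled KO, against 23.2 FPKM in WT. Of 9 glycine receptor and transporter genes, 4 were lower and 2 higher. Among 11 calmodulin-dependent kinases 3 were at least 1 higher, and Camk2b, which cerebellum and cortex both use, was at 148 FPKM in the library labelled KO and 159 FPKM in WT. Of 16 postsynaptic scaffold genes 6 were at least 1 higher and 1 lower, and of 10 neuronal bHLH genes 1 was higher and 1 lower. Some members of these lists were already counted in lists above, among them Slc6a5, Camk2a, Ddn, Homer3, Neurod6 and Neurod1.

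Most genes of the pan-neuronal list, which also holds transmitter genes such as Gad1 and Slc17a7, differed by less than 1. Among 16 pan-neuronal genes 2 were at least 1 higher and none lower, with a median of 0.33, and the housekeeping list had a median of 0.37 with 2 of 14 higher. Synaptophysin, Syp, was at 318 FPKM in the library labelled KO and 245 FPKM in WT, and Tubb3, neuronal tubulin, at 138 FPKM and 153 FPKM. Syt1, the calcium sensor of vesicle release in forebrain synapses, was the pan-neuronal gene with the largest difference, at 541 FPKM, against 75.4 FPKM in WT. Slc17a7, the vesicular glutamate transporter of cortex and of granule neurons, was at 252 FPKM in the library labelled KO, against 126 FPKM in WT. Stmn2, Eno2 and Gad1 differed by 0.01, -0.32 and -0.07, and Snap25 by 1.15. Ribosomal protein genes, taken up after values were seen, had a median of 0.40 with 8 of 81 higher. Hprt was at 62.8 FPKM in the library labelled KO and 42.1 FPKM in WT, while Ppia was listed at 0 in both and Gapdh stood at 4.83 FPKM and 4.17 FPKM, so a value of 0 in this table is not proof of absence.

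Immediate early genes, which neurons switch on with activity, were higher in 8 of 13 by at least 1 and lower in 1, with a median of 1.49. Egr3 was at 43.5 FPKM in the library labelled KO, against 0.192 FPKM in WT and 0.185 to 0.659 FPKM over the 1-month libraries. Egr1 was at 51.3 FPKM in the library labelled KO, against 5.18 FPKM in WT, and Arc, which acts at dendrites, at 51.4 FPKM, against 12.2 FPKM. Fos was at 11.8 FPKM, against 7.01 FPKM in WT, within the 5.09 to 20.8 FPKM of the 1-month libraries. Ier2, at 1.05 FPKM against 4.37 FPKM in WT, was the member that was lower.

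Of 12 astrocyte genes 1 was at least 1 higher and 2 lower, with Gfap at 67.1 FPKM in the library labelled KO and 77.0 FPKM in WT. Acsbg1, an acyl-CoA synthetase, was at 36.3 FPKM in the library labelled KO, against 118 FPKM in WT, and Slc1a2, the main glutamate transporter of forebrain astrocytes, at 546 FPKM, against 297 FPKM. Of 15 oligodendrocyte genes 4 were lower and none higher, with Mag, a myelin adhesion protein, at 45.7 FPKM in the library labelled KO, against 128 FPKM in WT. None of 10 precursor genes and none of 12 endothelial and pericyte genes differed by 1. Meningeal genes gave 1 of 11 lower, blood genes 0 of 5, ependymal genes 1 of 8 lower, and pituitary and pineal genes 1 of 8 lower.

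Microglial genes were higher in all 15 cases, in 8 by at least 1, with a median of 1.03. Cx3cr1, the fractalkine receptor, was at 12.9 FPKM in the library labelled KO, against 4.61 FPKM in WT. Its 1-month values were 9.22, 8.26 and 8.95 FPKM in the KO libraries and 5.18, 4.45 and 3.78 FPKM in the WT libraries. All 4 KO libraries were thus above all 4 WT libraries for Cx3cr1. C1qa, a complement subunit, was at 32.4 FPKM in the library labelled KO, against 16.2 FPKM in WT, and was higher still, at 38.3 to 56.5 FPKM, in the KO libraries of 1 month, against at most 18.6 FPKM in WT.

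Choroid plexus genes were lower in all 10 cases, in 4 by at least 1, and the library labelled KO was the lowest of the 8 in each. All 10 passed the filter, 6 of them only through the library labelled WT. Ttr, transthyretin, was at 54.5 FPKM in the library labelled KO, against 274 FPKM in WT. At 1 month it was at 202, 194 and 1058 FPKM in the KO libraries and 711, 680.4 and 536 FPKM in the WT libraries. The KO libraries of 1 month thus spread more widely for Ttr than the 4-month pair.

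The targeted gene was read as Mll2. The table has neither Mll4 nor Kmt2d, and RefSeq gives Mll2 as an older name of both Kmt2b and Kmt2d but Wbp7 of Kmt2b alone, so this reading could not be settled. Mll2 was at 16.6 FPKM in the library labelled KO, against 46.6 FPKM in WT, a difference of -1.43. At 1 month it was at 12.7, 13.6 and 23.5 FPKM in the KO libraries and 18.2, 19.9 and 22.3 FPKM in the WT libraries. The library labelled WT at 4 months held the highest value of the 8, and the KO value lay among those of 1 month, where the groups overlapped. Gene-level FPKM would not show a deletion of part of a transcript. Wbp7 was at 11.0 FPKM in the library labelled KO, against 23.4 FPKM in WT, and Mll3 at 21.2 FPKM, against 35.1 FPKM. Mll1 was at 25.7 FPKM in the library labelled KO and 21.5 FPKM in WT. Kdm6a, a demethylase of the same complexes, was at 11.9 FPKM, against 21.7 FPKM in WT, and the regulators Dnmt3a, Bcl6 and Sirt1 differed by -0.62, -1.54 and -0.32.

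The composition of the libraries also differed. Small RNA symbols took 11.0% of all FPKM in the library labelled KO at 4 months, against 48.2% in the library labelled WT, with 24.4% to 44.7% over the 1-month libraries. The FPKM of all genes summed to 381845 and 630615. Of 10 transcripts without poly-A tails or of that kind, 5 were at least 1 lower in the library labelled KO, among them Rmrp, an RNA of the mitochondrial processing ribonuclease, at 9222 FPKM, against 37638 FPKM in WT. With the small RNA symbols left out and each library rescaled, the medians of the cortical and granule lists were 3.22 and -3.66, as large as before. Male-specific transcripts were present and Xist was near 0 in all 8 libraries.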

How the data were processed

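Total RNA of mouse cerebellum was sequenced on an Illumina HiSeq instrument, per the labels' protocols. The submitters' processing notes name Bowtie 1.1.2, TopHat2 2.1.0, Cuffdiff and genome build mm9. The authors deposited FPKM values in 1 table, a column to each library. Of its rows 1, a repeated header, was removed, and 0 columns were left unmapped. Not given in the sources used here were the annotation, the strand setting and any further scaling, so overlapping and antisense genes cannot be told apart. The depth of the libraries is unknown, and counting intervals could not be had.

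Differences were taken as log2(FPKM + 1), KO minus WT, in genes averaging 1 FPKM or more, with Python 3.11.15, pandas 2.3.3 and numpy 2.4.6, checked on simulated data. No test or p-value was possible with 1 library a side. A difference against a value listed at 0 is not printed for single genes but enters list medians and counts on the log2(FPKM + 1) scale.

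The pair, the 34 gene lists and the alternatives were chosen with earlier results of these data known, and 11 further lists (cortical layers, Hox, ribosomal, muscarinic and serotonin, glycine, kinase, scaffold, Zic and Engrailed, bHLH) after these values were seen. For 7 members older symbols were matched through RefSeq synonyms, also after the values were seen. Some list members are counted but not reported singly here. Genes named are the first 6 of each list, the 10 largest differences each way at a mean of at least 5 FPKM without small RNA and accession-like symbols, receptor family members, the targeted gene and its relatives, and the extremes of regional lists; other named members were chosen after their values were seen. Alternatives were the pseudocount, the filter, 3 rescalings, the WT libraries of 1 month in place of the 4-month one, and members held by no other of the 34 lists.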

Additional observations from a re-analysis of the deposited data

Results flagged for a closer look

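Some lists moved one way between KO and WT at 4 months and the other way at 1 month, where all 3 KO libraries lay on the opposite side of all 3 WT libraries. The 4-month side has 1 library per genotype, and the difference between ages was not tested. Values are medians of log2(FPKM + 1), KO minus WT, over every member found, since the filter was set on the 4-month pair.

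Hindbrain and Hox factors had a median of -0.94 at 4 months and 1.28 at 1 month, and brainstem transmitter genes -1.25 and 1.76. In the 3 KO libraries of 1 month the brainstem median lay 2.16, 2.17 and 1.13 above the WT mean, and the 3 WT libraries of that age lay at -0.40, -0.39 and 0.74. Immediate early genes had a median of 1.49 at 4 months and -0.65 at 1 month. GABA-A receptor subunits had 0.56 and -0.25, and ionotropic glutamate receptor subunits 0.24 and -0.16. Smaller reversals were seen in astrocyte genes, with -0.23 at 4 months and 0.17 at 1 month, in endothelial and pericyte genes, with -0.21 and 0.14, and in meningeal genes, with -0.20 and 0.58. Hypothalamic genes, with -0.0689 and 0.17, and sex-linked transcripts, with 0.0702 and -0.31, met the same rule at 4-month medians close to 0. Granule and Purkinje genes were lower at both ages, with -3.47 and -2.44 at 4 months and -1.80 and -1.31 at 1 month.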

How the results depend on the processing

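A list median was called moved when it shifted by more than its standard deviation over the 3 WT libraries of 1 month, and a count when it changed by over 1.5 times. Of 77 alternative values, 46 stayed within that, 30 moved in the same direction and 1 reversed. The cause was not tested unless named.

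Before any change, the medians over members that passed the filter were 3.61 for telencephalic factors (12 genes), 3.06 for cortical projection neurons, 0.81 for hippocampus, 1.1 for striatum, -3.47 for granule neurons, -2.44 for Purkinje cells, -1.79 for hindbrain and Hox factors and -2.13 for brainstem transmitter genes. With a pseudocount of 0.1 FPKM, which weights low genes more by construction, the medians were 5.29 for telencephalic factors, 3.36 for cortical projection neurons, 1.21 for hippocampus, 1.55 for striatum, -3.85 for granule neurons, -2.64 for Purkinje cells, -4.67 for hindbrain and Hox factors and -3.45 for brainstem transmitter genes. With no filter the telencephalic median was 2.39, the hippocampal 0.24, the hindbrain -0.94 and the brainstem -1.25, over more genes. With a filter at 5 FPKM the telencephalic median was 3.67, the cortical 3.14, the striatal 0.94 and the brainstem -3.56 over 2 genes. With small RNA left out and libraries rescaled to equal sums, 2504 genes were lower in place of 1653, and the medians were 3.71 (telencephalic), 3.22 (cortical), 0.70 (hippocampal), 1.62 (striatal), -3.66 (granule) and -2.69 (Purkinje). Quantile normalization gave 3.66 for the telencephalic list.

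With the mean of the WT libraries of 1 month as reference, the median of all genes moved to -0.14, and the list medians were 3.46 (telencephalic), 2.72 (cortical), 1.43 (striatal), -3.93 (granule) and -0.71 (brainstem). The hindbrain and Hox median reversed to 1.26 over 3 genes kept, of which 2 were higher. Purkinje members held by no other of the 34 lists had a median of -2.35, with overlap with the 11 further lists not counted. The filter at 5 FPKM left no hindbrain gene and gave no value. No paired analysis was possible because each genotype has 1 library at 4 months. Unknown depth limits statements on genes near 0 FPKM.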
